A study of Mus musculus with 11 samples.

Results

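The 10 genes described here are used to mark the resident macrophages of bone marrow, among them the macrophages at the centre of erythroblast islands. They are Adgre1, Mrc1, Cd163, C1qa, C1qb, C1qc, Cd5l, Spic, Slc40a1 and Axl and were taken by gene symbol from the 22600 genes of the merged count table. All 10 were in the table and all 10 passed the filter on low counts. Each library was made from the whole distal tibia of 1 mouse, and there were 4 Control and 7 BMAd-DTA animals. All mice were of strain C57BL6/SJL, were fed ad libitum and were 24 weeks old by their labels. The Control mice carry the genotype label BMAd-WT. According to the study's methods every mouse, controls included, was positive for Osterix-FLPo and for FAC, a flippase-dependent Cre inserted at the end of the endogenous Adipoq gene, so that Cre is made where both Osterix and Adipoq have been active. BMAd-DTA mice carry in addition ROSA-DTA, in which Cre removes a LoxP-flanked STOP cassette and diphtheria toxin A is made, which kills the bone marrow adipocyte. Recombination in this model is not complete, and a small subset of adipocyte-lineage stromal cells is also targeted. The labels give no sex, and the legend of the study's RNA-seq panels speaks of male mice. All 11 libraries had high counts of Xist (13810 to 20260) and 0 or 1 counts over 4 genes of the Y chromosome, as in RNA of females, which goes against that legend.

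Macrophages of the erythroblast island hold maturing erythroblasts by adhesion molecules, engulf the nuclei that these cells expel, take up aged red cells, break down their heme and return the iron to plasma through ferroportin. Resident macrophages also clear dying cells, bind them through C1q and the receptor Axl, and take up other material by scavenger and lectin receptors. In bone marrow they lie beside adipocytes, sinusoids, osteoblasts and osteoclasts. In RNA of whole bone, fewer cells of a type and less RNA per cell cannot be told apart.

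Counts assigned to genes totalled 16969529 to 18637663 per library, and a member had 225 to 6987 counts in a library. Levels are given as CPM, counts scaled to a common library total, on library sizes scaled by the TMM method. Differences are log2 fold changes of BMAd-DTA over Control from edgeR's quasi-likelihood test, with p-values adjusted by the Benjamini-Hochberg method over 16496 genes, of which 13, or 0.0788%, had an adjusted p under 0.05. The library of Control mouse 1 stood apart in its osteoblast and osteocyte markers. The summed CPM of 12 osteoblast and osteocyte genes was 3470 in this library, 11634, 13711 and 11624 in the other controls, and 16682 to 37013 in BMAd-DTA mice. Values without this mouse are therefore given beside each member's difference. The p-values set the difference between the groups against the spread between these mice.

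C1qa, C1qb and C1qc encode the 3 chains of C1q, the recognition part of the first complement component, which macrophages make. They lie side by side on chromosome 4 within 18675 bases, all on the minus strand of GRCm38 (C1qb at 136880129 to 136886187, C1qc at 136889804 to 136893065 and C1qa at 136895917 to 136898803), with 3616 bases between C1qb and C1qc and 2851 bases between C1qc and C1qa. The DNA before the start of C1qb and C1qc is printed because the levels of these genes varied together. That of Cd163 is printed because its level varied, less closely, in the opposite direction. The sequences are from RefSeq on GRCm38.p6, read 5′ to 3′ on the strand of the gene, and end before the first base of the gene in both RefSeq and the annotation used here. Capitals mark GAGGAA or its reverse complement TTCCTC, the core bound by PU.1, the factor of the macrophage lineage, and TGCTGA or its reverse complement TCAGCA, a part of the site bound by Maf factors. The stretches are C1qb at chr4:136886201-136886450 on the minus strand, C1qc at chr4:136893066-136893164 on the minus strand and Cd163 at chr6:124304401-124304650 on the plus strand.
C1qb: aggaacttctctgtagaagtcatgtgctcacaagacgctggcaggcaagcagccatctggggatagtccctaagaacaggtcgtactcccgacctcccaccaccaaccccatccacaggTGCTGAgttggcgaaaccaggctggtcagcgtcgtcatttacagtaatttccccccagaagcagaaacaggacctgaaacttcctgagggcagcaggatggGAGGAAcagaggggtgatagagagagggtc
C1qc: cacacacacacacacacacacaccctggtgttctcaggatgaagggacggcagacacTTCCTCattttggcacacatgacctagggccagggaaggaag
Cd163: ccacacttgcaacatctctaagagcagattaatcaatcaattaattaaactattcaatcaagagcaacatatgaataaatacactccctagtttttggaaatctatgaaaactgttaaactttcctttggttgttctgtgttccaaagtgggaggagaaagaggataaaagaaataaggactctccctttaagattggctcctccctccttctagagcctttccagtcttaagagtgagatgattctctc
Windows from 250 bases before to 50 bases after the RefSeq start were at hand for 7 of the 10 genes, which leaves out Adgre1, C1qa and Slc40a1. GAGGAA, on either strand, was in the windows of 5 of these 7 genes (Mrc1, C1qb, C1qc, Cd5l and Axl) and in 28.3% of 32851 windows of all genes. TGCTGA, on either strand, was in the windows of 3 of the 7 (C1qb, Cd5l and Spic) and in 19.5% of all windows. Mrc1, the mannose receptor gene, held 3 matches to GAGGAA, while the Cd163 window held neither motif. These are matches of letters in a short window and not measured binding, and their bearing on how the levels varied was not tested.

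None of the 10 macrophage genes differed between the groups past the threshold, beside 0.0788% of all genes (0.0727% in the higher and 0.00606% in the lower direction). By DESeq2, run as an alternative, none of the 10 was called beside 3.74% of all genes. The fitted level was lower in BMAd-DTA mice for 6 members and higher for 4, where 49.6% of all genes were lower. The median log2 fold change was -0.06 over the members and 0.0018 over all genes. Adgre1 alone had an unadjusted p under 0.05, and it was lower in BMAd-DTA mice. The share of all genes with such a p was 16.4% in either direction and 8.53% in the lower direction. For each of the 10 genes the groups overlapped, and 2.81% of all genes had groups that did not. Summed over the 10 genes, Control libraries held 1618 to 1752 CPM and BMAd-DTA libraries 1377 to 1785 CPM. The plot of levels by mouse shows this overlap for every gene.

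**Figure D1:**
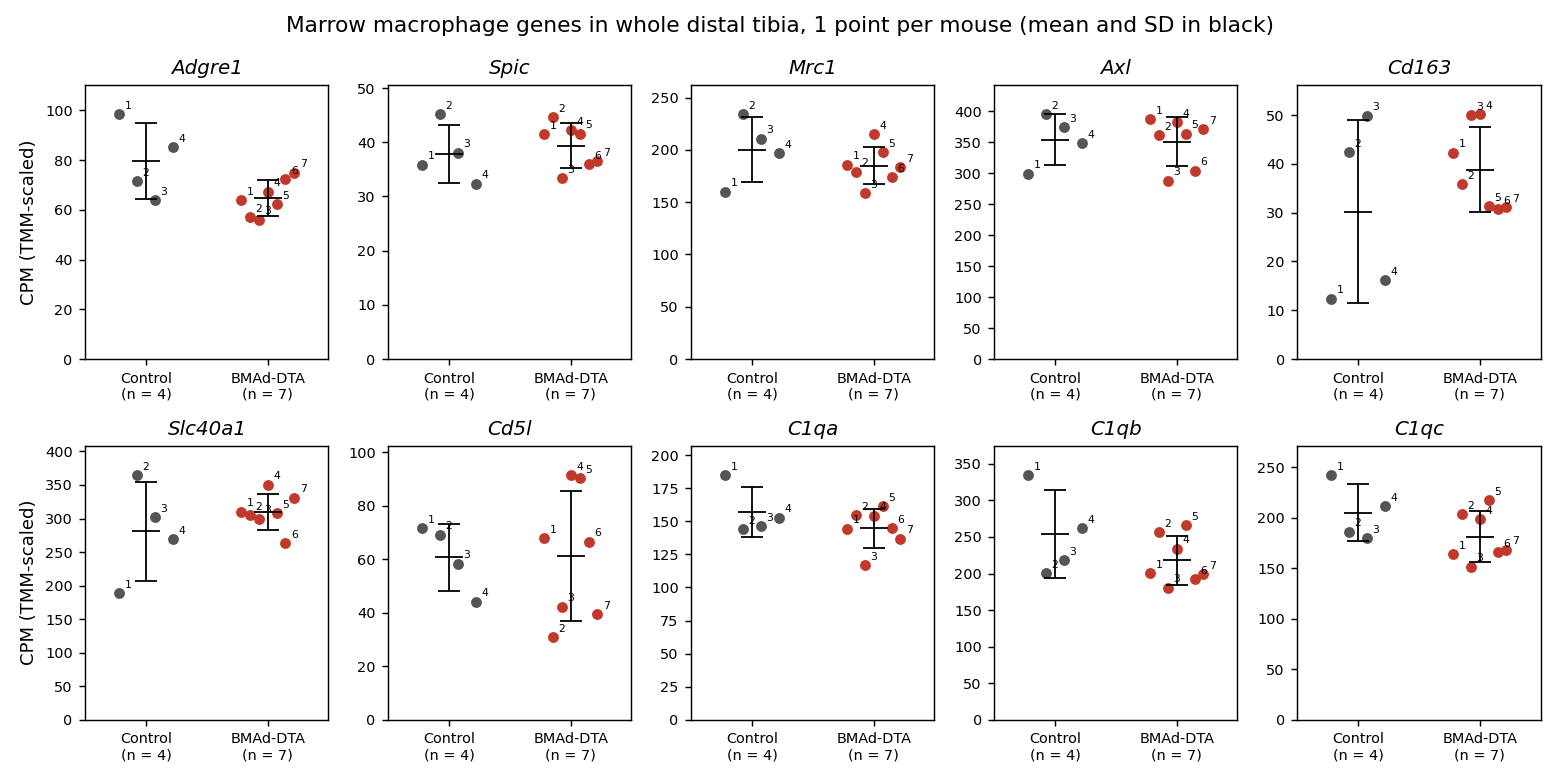
CPM on TMM-scaled library sizes (vertical axes, from 0) of each macrophage gene in 4 Control (grey) and 7 BMAd-DTA mice (red), 1 numbered point per mouse, with the mean and SD in black. The groups overlap for all 10 genes, and the controls of Cd163 lie between 12.4 and 49.9 CPM.

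Adgre1 encodes F4/80, the surface receptor by which mouse macrophages are usually recognised and which eosinophils also carry. It was at 98.4, 71.6, 63.9 and 85.2 CPM in Control mice 1 to 4 and at 55.9 to 75.0 CPM in BMAd-DTA mice, with a median of 63.9. The highest values were those of Control mice 1 and 4, and 3 of the 7 BMAd-DTA mice were below every control. The means were 79.8 ± 15.2 CPM (SD, n = 4) and 64.8 ± 7.21 CPM (SD, n = 7), a log2 fold change of -0.30 ± 0.11 (SE; 95% interval -0.55 to -0.05; edgeR adjusted p = 0.209). Without Control mouse 1 it was -0.18 (edgeR adjusted p = 0.596), and without Control mouse 3 it was -0.39 (edgeR adjusted p = 0.0758). The 9 eosinophil genes, such as Epx and Prg2, summed to 4821, 1192, 2020 and 2726 CPM in Control mice 1 to 4 and to 2072 to 7376 CPM in BMAd-DTA mice. The fitted level of all 9 was higher in the BMAd-DTA group and none passed the test. Their part in the Adgre1 level was not tested.

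The 3 C1q genes had lower fitted levels in BMAd-DTA mice by amounts within the spread between mice. C1qa was at 185, 144, 146 and 153 CPM in Control mice 1 to 4 and at 117 to 161 CPM in BMAd-DTA mice, with a median of 145. C1qb was at 335, 200, 218 and 262 CPM in Control mice 1 to 4 and at 181 to 266 CPM in BMAd-DTA mice, with a median of 201. C1qc was at 242, 186, 180 and 211 CPM in Control mice 1 to 4 and at 151 to 217 CPM in BMAd-DTA mice, with a median of 168. Control mouse 1 was the highest of all 11 for each chain, and BMAd-DTA mouse 3 was the lowest for each. The log2 fold changes were -0.12 ± 0.09 for C1qa, -0.22 ± 0.14 for C1qb and -0.18 ± 0.11 for C1qc (SE), with edgeR adjusted p from 0.457 to 0.579. Without Control mouse 1 they were -0.03, -0.06 and -0.09. The intervals reached from -0.32 to 0.08 for C1qa, from -0.52 to 0.09 for C1qb and from -0.41 to 0.06 for C1qc.

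C1q works with the proteases C1r and C1s, and C1 inhibitor, encoded by Serping1, holds them in check. Of 11 tested genes of C1q partners and classical complement beside the C1q chains, 2 were fitted higher and 9 lower in the BMAd-DTA group. The median was -0.03 on the log2 scale, and none passed the test. These counts include Cd93 (-0.03), Calr (-0.05), C1qbp (-0.02) and C1qtnf1 (0.02), which are not components of the classical pathway. C1ra was at 64.5 ± 7.14 CPM in Control (SD, n = 4) and 49.6 ± 5.21 CPM in the BMAd-DTA group (SD, n = 7), a log2 fold change of -0.38 (edgeR adjusted p = 0.0774). In 6 of the 7 BMAd-DTA animals it was under the lowest control. C1s1 had a log2 fold change of -0.17 and Serping1 one of -0.03. C4b, the gene of complement component C4, had the lowest value of the list (-0.45, edgeR adjusted p = 0.288), and C1s2, at 0.383 CPM in Control and 1.41 CPM in BMAd-DTA mice, had the highest (1.87, edgeR adjusted p = 0.431).

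Cd163 encodes the receptor that takes up hemoglobin bound to haptoglobin. It was at 12.4, 42.4, 49.9 and 16.1 CPM in Control mice 1 to 4 and at 30.7 to 50.2 CPM in BMAd-DTA mice, with a median of 35.9. Control mice 1 and 4 were below every BMAd-DTA mouse, while Control mice 2 and 3 were inside their range. The highest control was 4.02 times the lowest, and the highest BMAd-DTA mouse was 1.63 times the lowest. The log2 fold change was 0.36 ± 0.33 (SE; 95% interval -0.34 to 1.07; edgeR adjusted p = 0.637), the largest among the 10 genes. It was 0.10 without Control mouse 1 and 0.72 without Control mouse 3 (edgeR adjusted p from 0.252 to 0.935 over the mice left out).

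Slc40a1 encodes ferroportin, the exporter by which macrophages release iron. It was at 188, 365, 302 and 269 CPM in Control mice 1 to 4 and at 263 to 351 CPM in BMAd-DTA mice, with a median of 308. The controls held both the lowest and the highest of all 11 values. The log2 fold change was 0.14 ± 0.14 (SE; 95% interval -0.16 to 0.44; edgeR adjusted p = 0.674) and was -0.01 without Control mouse 1. Spic encodes the transcription factor that heme induces in macrophages of spleen and marrow. It was at 35.9, 45.2, 38.1 and 32.4 CPM in Control mice 1 to 4 and at 33.4 to 44.6 CPM in BMAd-DTA mice, with a median of 41.5. Every BMAd-DTA mouse was inside the range of the controls, and the log2 fold change was 0.06 ± 0.10 (SE; 95% interval -0.16 to 0.28; edgeR adjusted p = 0.833), or 0.03 without Control mouse 1.

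Of 20 other genes of iron and heme handling, 7 were fitted higher and 13 lower in the BMAd-DTA group, the median being -0.07 on the log2 scale, and none passed the test. Hmox1, heme oxygenase 1, which opens the heme ring, was at 193, 404, 364 and 279 CPM in Control mice 1 to 4 and at 402 to 535 CPM in BMAd-DTA mice, with a median of 424. Only Control mouse 2 was within the range of the BMAd-DTA mice. The log2 fold change of Hmox1 was 0.52 ± 0.16 (SE; edgeR adjusted p = 0.134). Blvra, the gene of the next enzyme, biliverdin reductase A, had a log2 fold change of 0.02 (edgeR adjusted p = 0.952). The biliverdin reductase B gene Blvrb had one of -0.41 (edgeR adjusted p = 0.203). The heme transporter gene Slc48a1 had one of -0.03, and the ferritin heavy chain gene Fth1 one of 0.02. Ftl1, the ferritin light chain gene, had the highest value of the list (0.98 ± 0.37 SE, edgeR adjusted p = 0.204), but it has near-identical copies and its count is uncertain. Tfrc, the transferrin receptor gene, had the lowest (-0.43, edgeR adjusted p = 0.115). The sum of 14 erythroid genes was 9260, 8299, 7198 and 4532 CPM in Control mice 1 to 4 and 4573 to 7272 CPM in BMAd-DTA mice, and the fitted level of all 14 was lower in the latter without passing the test. The part of erythroid RNA in the iron genes was not tested.

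Genes by which erythroblast islands adhere and digest nuclei had 5 of 11 members fitted higher and 6 lower, the median being -0.08 on the log2 scale, with none past the threshold. Vcam1, an adhesion molecule of island macrophages and of stroma and endothelium, was at 469 ± 50.4 CPM in Control and 497 ± 47.7 CPM in BMAd-DTA mice. Siglec1, the sialic acid receptor CD169, was at 90.5 ± 24.7 and 80.0 ± 13.6 CPM. Timd4, a receptor for phosphatidylserine on dying cells, was at 16.3 ± 10.2 and 15.3 ± 5.53 CPM (SD, n = 4 and n = 7 for all 3 genes). Itgav, an integrin chain, had the highest log2 fold change of the list (0.45, edgeR adjusted p = 0.238), and Epor, the erythropoietin receptor gene, the lowest (-0.48, edgeR adjusted p = 0.144).

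Mrc1 encodes the mannose receptor CD206 and shares its locus with the microRNA gene Mir511 on the same strand. It was at 160, 234, 211 and 197 CPM in Control mice 1 to 4 and at 159 to 215 CPM in BMAd-DTA mice, with a median of 183. Only 1 BMAd-DTA mouse lay outside the range of the controls. The log2 fold change was -0.12 ± 0.10 (SE; 95% interval -0.33 to 0.10; edgeR adjusted p = 0.613), and without Control mouse 1 it was -0.21. Of 18 other scavenger and lectin receptor genes tested, 11 had a higher and 7 a lower fitted level, with a median of 0.09 on the log2 scale and none past the threshold. Marco, a scavenger receptor gene, had the highest log2 fold change (0.86, edgeR adjusted p = 0.418) and Fcgr4, an Fc receptor gene, the lowest (-1.59, edgeR adjusted p = 0.0992). The controls of Fcgr4 were far apart, at 24.6 to 187 CPM with a median of 47.9. Its BMAd-DTA mice were at 20.4 to 34.8 CPM. Cd68, a lysosomal protein of macrophages and osteoclasts, was at 178 to 230 CPM in Control and at 249 to 329 CPM in BMAd-DTA mice, a log2 fold change of 0.43 ± 0.10 (SE; edgeR adjusted p = 0.0720). Of the 10 osteoclast genes 9 were fitted higher, the median being 0.95 on the log2 scale and none past the threshold, and their part in the Cd68 level was not tested.

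Axl encodes a receptor tyrosine kinase of the TAM family (Tyro3, Axl, Mertk), which binds dying cells through the bridging proteins Gas6 and protein S. It was at 299, 395, 374 and 348 CPM in Control mice 1 to 4 and at 288 to 387 CPM in BMAd-DTA mice, with a median of 364. The means were 354 ± 41.3 CPM (SD, n = 4) and 351 ± 39.0 CPM (SD, n = 7), and the log2 fold change was -0.01 ± 0.10 (SE; 95% interval -0.22 to 0.20; edgeR adjusted p = 0.970), or -0.09 without Control mouse 1. Of 14 other genes of TAM receptors, ligands and uptake of dying cells, 6 had a higher and 8 a lower fitted level, with a median of -0.02 on the log2 scale and none past the threshold. Mertk was at 59.6 ± 7.38 CPM in Control and 58.7 ± 7.66 CPM in BMAd-DTA mice, and Tyro3 was at 2.25 ± 0.786 and 2.20 ± 0.746 CPM. The ligand gene Gas6, which stromal cells also make, was at 234 to 390 CPM in Control and at 393 to 548 CPM in BMAd-DTA mice, a log2 fold change of 0.46 ± 0.13 (SE; edgeR adjusted p = 0.117), with all 7 BMAd-DTA mice above every control. Pros1, the gene of protein S, which is a ligand of Tyro3 and Mertk, had a log2 fold change of -0.08. The highest value of the list was that of Mfge8, another bridging protein (0.48, edgeR adjusted p = 0.0905), and the lowest that of Gulp1, an engulfment adaptor (-0.17, edgeR adjusted p = 0.699).

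Cd5l encodes AIM, a secreted scavenger-receptor-like protein made by macrophages under control of the liver X receptor. It was at 71.6, 69.2, 58.3 and 44.1 CPM in Control mice 1 to 4 and at 67.8, 30.9, 42.3, 91.5, 90.3, 66.6 and 39.5 CPM in BMAd-DTA mice 1 to 7. The BMAd-DTA mice lay on both sides of the controls, with 2 above and 3 below every control. The means were nearly the same, 60.8 ± 12.5 CPM (SD, n = 4) and 61.3 ± 24.5 CPM (SD, n = 7), and the log2 fold change was 0.01 ± 0.28 (SE; 95% interval -0.58 to 0.61; edgeR adjusted p = 0.990), or 0.10 without Control mouse 1. Of 9 genes that the liver X receptor drives, 2 were fitted higher and 7 lower in the BMAd-DTA group, the median being -0.10 on the log2 scale and none past the threshold. Abca1, a cholesterol exporter, had the highest (0.24, edgeR adjusted p = 0.371), and Scd1, a fatty acid desaturase abundant in adipocytes, the lowest (-1.08, edgeR adjusted p = 0.185).

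**Figure D2:**
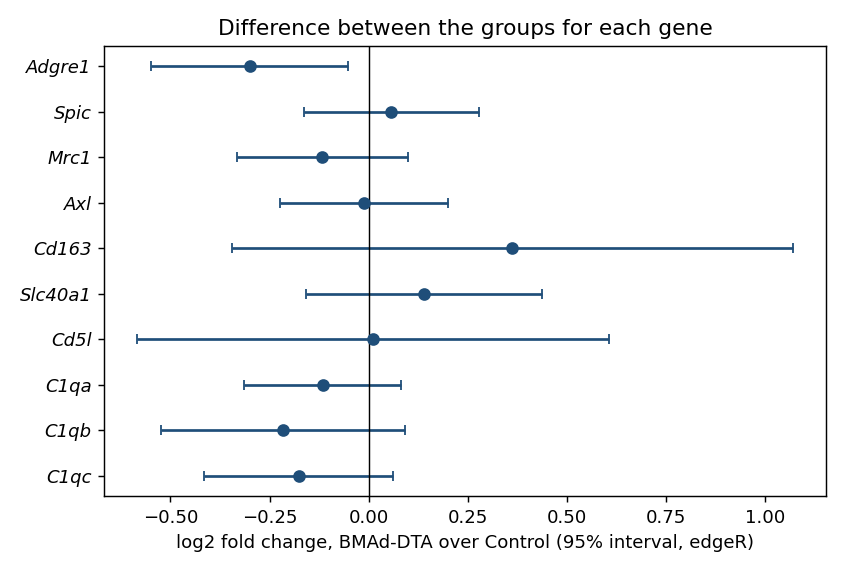
Log2 fold change of BMAd-DTA over Control (horizontal axis) for each macrophage gene from edgeR, with its 95% interval from 4 Control and 7 BMAd-DTA mice and a line at 0. The interval of Adgre1 (-0.55 to -0.05) lies below 0 before adjustment over all genes, the other 9 include 0, and those of Cd163 and Cd5l are the widest.

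Of 19 regulators of the macrophage lineage, 7 were fitted higher and 12 lower, the median being -0.03 on the log2 scale and none past the threshold. Csf1r, the receptor for the macrophage growth factor, was at 303 ± 19.2 CPM in Control (SD, n = 4) and 329 ± 38.7 CPM in the BMAd-DTA group (SD, n = 7), and Spi1, the gene of PU.1, was at 304 ± 9.63 and 298 ± 24.4 CPM. The log2 fold changes of Maf (-0.02) and Nr1h3, the liver X receptor alpha gene (-0.19), had intervals that included 0. Id3 had the highest of the list (0.73, edgeR adjusted p = 0.0675) and Il34, another ligand of the Csf1r receptor, the lowest (-0.44, edgeR adjusted p = 0.431). Csf1, the gene of the macrophage growth factor, had a log2 fold change of 0.51 (edgeR adjusted p = 0.0720). Mean Csf1 was 93.4 CPM in Control and 133 CPM in BMAd-DTA mice. The lowest BMAd-DTA value of Csf1, 111.47 CPM, lay just above its highest control value, 111.15 CPM. Hprt, a common reference gene, was at 62.1 ± 3.78 CPM in Control and 62.1 ± 2.54 CPM in BMAd-DTA mice.

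Relative to length, with each gene's CPM divided by the kilobases of its exons merged over all its transcripts, the C1q genes were the most abundant of the 10 and Cd163 the least. In Control mice C1qb was at 233 ± 55.0 CPM per kb, C1qa at 151 ± 18.3, C1qc at 106 ± 14.7 and Axl at 70.3 ± 8.20 (SD, n = 4). Mrc1 (31.5 ± 4.87), Slc40a1 (31.2 ± 8.16), Cd5l (29.9 ± 6.16) and Adgre1 (24.6 ± 4.70 CPM per kb) were within their spread of each other. Spic at 9.86 ± 1.41 and Cd163 at 5.53 ± 3.43 CPM per kb also overlapped. The order in BMAd-DTA mice differed among Mrc1, Slc40a1 and Cd5l only, with C1qb at 201 and Cd163 at 7.10 CPM per kb.

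The marker lists of other cells were read in the same libraries. The 15 pan-leukocyte genes summed to 7417 to 7642 CPM in Control and 6707 to 8049 CPM in BMAd-DTA mice, and the 14 monocyte genes to 4656 to 4802 and 4158 to 5183 CPM, both with none past the threshold. All 14 adipocyte genes were fitted lower in the BMAd-DTA group, the median being -1.10 on the log2 scale, and Retn, the gene of resistin, passed the test (-1.38, edgeR adjusted p = 0.0205). All 12 osteoblast and osteocyte genes were fitted higher, the median being 0.90, and Alpl, alkaline phosphatase, passed (1.16, edgeR adjusted p = 0.0326). Skeletal muscle RNA differed widely between libraries of both groups. The 14 muscle genes summed to 30.0 to 1504 CPM in Control and 28.8 to 1167 CPM in BMAd-DTA mice. All 14 were fitted lower in the BMAd-DTA group, with none past the threshold. Markers of macrophages of other tissues were scarce: 5 of 9 could be tested. The 8 that were in the merged count table summed to 68.8 to 110 CPM in Control and 102 to 152 CPM in BMAd-DTA mice. Of the 5 tested, 4 were fitted higher and 1 lower, the median being 0.47 on the log2 scale, with none past the threshold. An unadjusted edgeR p under 0.05 was found for 2 of the 5, beside 16.4% of all genes. Groups that did not overlap were found for 1, beside 2.81% of all genes.

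Within the groups, the 10 genes did not vary as 1 set. For each gene the log2 CPM of every mouse was taken less the mean of its group, and these deviations were correlated between genes over the 11 libraries. All correlations are descriptions. The points share each library's scaling, and Control mouse 1 is at an end of several of them. For the means of gene lists only Pearson's r was computed, so how far it rests on single libraries is not shown. The 3 C1q chains varied together. Pearson's r was 0.96 between C1qb and C1qc (Spearman's rho 0.89), 0.89 between C1qa and C1qc (rho 0.87) and 0.88 between C1qa and C1qb (rho 0.93), and without the 2 libraries farthest from the median these were 0.93, 0.875 and 0.89. The ratio of C1qb to C1qa counts ranged from 1.33 to 1.81 over the 11 mice, and that of C1qc to C1qa from 1.14 to 1.39.

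Mrc1, Slc40a1 and Axl also varied together, and Spic and Cd163 in part with them. Pearson's r was 0.87 between Mrc1 and Slc40a1 (rho 0.92), 0.86 between Mrc1 and Axl (rho 0.87) and 0.77 between Slc40a1 and Axl (rho 0.91). Without the 2 libraries farthest from the median these were 0.67, 0.80 and 0.70. Cd163 had r of 0.77 with Slc40a1 (rho 0.75, and 0.66 without the 2 farthest libraries), 0.60 with Mrc1 and 0.46 with Axl. Spic had r of 0.71 with Axl, 0.65 with Mrc1 and 0.51 with Slc40a1. Control mouse 1 was the lowest in Slc40a1 of all 11 mice, and Control mouse 2 was the highest in all 3 genes. Hmox1 varied with Mrc1 (r = 0.92, rho = 0.85) and with Slc40a1 (r = 0.92, rho = 0.85), and without the 2 farthest libraries these were 0.83 and 0.67. Vcam1 varied with Mrc1 (r = 0.90, rho = 0.89, and 0.91 without the 2 farthest libraries). The mean of the 9 eosinophil genes had r of -0.865 with Slc40a1, -0.786 with Axl, -0.76 with Mrc1, -0.735 with Spic and -0.719 with Cd163, and of 0.644 with Adgre1. Its r with the C1q genes and Cd5l was between -0.0372 and 0.277. The mean of 12 genes of marrow stroma and fibroblasts had r of 0.658 with Mrc1, 0.431 with Axl and 0.426 with Slc40a1. Its r was 0.205 with Cd163 and 0.142 with Spic. The part of eosinophil or stromal RNA in these levels was not tested.

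Cd163 went against Adgre1 and, less closely, the C1q genes. Its r was -0.81 with Adgre1 (rho -0.79), or -0.59 without the 2 farthest libraries. With C1qa, C1qb and C1qc it was -0.58, -0.67 and -0.59, and without the 2 farthest libraries it was closer to 0, at -0.36, -0.47 and -0.35. The ratio of Cd163 to Adgre1 in CPM was 0.126, 0.593, 0.781 and 0.189 in Control mice 1 to 4 and 0.415 to 0.894 in BMAd-DTA mice. The ratio of C1qb to Cd163 was 27.0, 4.72, 4.38 and 16.2 in Control mice 1 to 4 and 3.61 to 8.51 in BMAd-DTA mice. Control mice 1 and 4 were thus outside the BMAd-DTA range in both ratios, and Control mice 2 and 3 inside it. The summed osteoclast genes were at 2045 to 3437 CPM in Control and 2535 to 5262 CPM in BMAd-DTA mice, and their mean had r of 0.775 with Cd163 and -0.71 with Adgre1. The mean of the osteoblast and osteocyte genes had r of -0.90 with Adgre1 and 0.69 with Cd163. The gene nearest to Cd163 among all tested was Dcstamp, a fusion protein of osteoclasts (r = 0.94, rho = 0.92), which was at 1.32, 5.01, 10.2 and 2.23 CPM in Control mice 1 to 4. The part of osteoclast and osteoblast RNA in the Cd163 and Adgre1 levels was not tested.

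**Figure D3:**
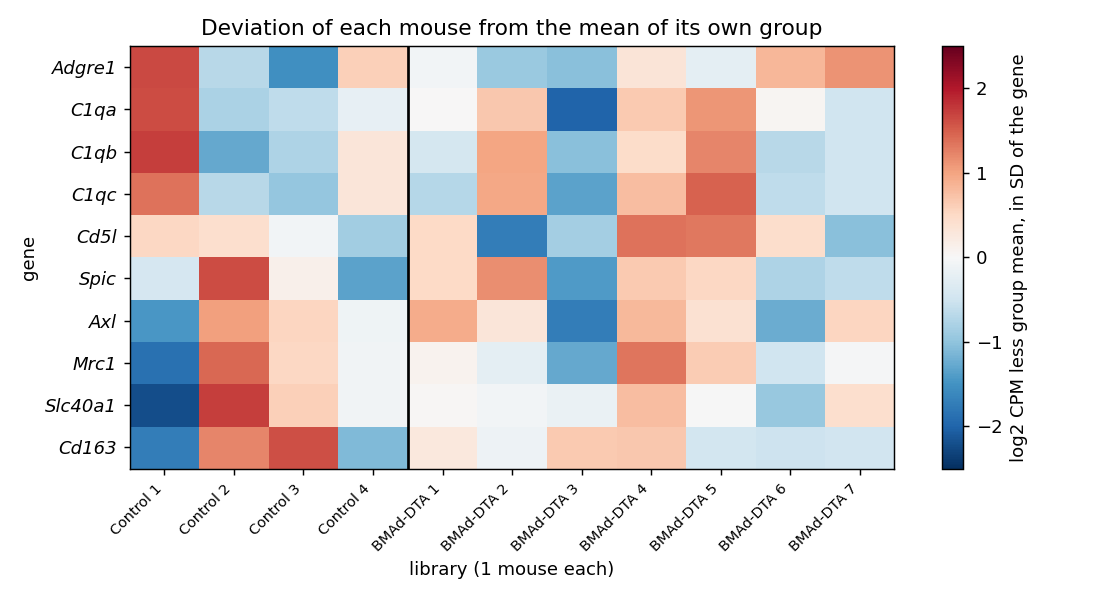
Deviation of log2 CPM from the mean of the mouse's own group, in SD of the gene (colour, red above and blue below), for the 10 macrophage genes (rows) in 4 Control and 7 BMAd-DTA libraries (columns). Control mouse 1 is high in Adgre1 and the C1q genes and low in Axl, Mrc1, Slc40a1 and Cd163, and Control mouse 2 shows the opposite.

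The highest r of Cd5l with another member was 0.41, with C1qa. The mean of the 14 adipocyte genes had r of 0.95 with Cd5l, while its r with the other 9 members was between -0.03 and 0.33. The summed CPM of the adipocyte genes was 2649, 2807, 3158 and 1934 in Control mice 1 to 4 and 1622, 882, 1165, 2183, 2256, 2016 and 816 in BMAd-DTA mice 1 to 7. BMAd-DTA mice 2, 3 and 7, the lowest in Cd5l, were also the lowest in the adipocyte genes, and BMAd-DTA mice 4 and 5, the highest in Cd5l, were the highest of their group. Plin1, the lipid droplet protein perilipin 1, had r of 0.95 with Cd5l (rho 0.90, and 0.92 without the 2 farthest libraries). Between the groups the 2 measures parted, with the fitted log2 fold change at 0.01 for Cd5l and at -1.30 for Plin1 (edgeR adjusted p = 0.173). The mean of the endothelial genes had r of 0.87 with Cd5l. The part of adipocyte or endothelial RNA in the Cd5l level was not tested.

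**Figure D4:**
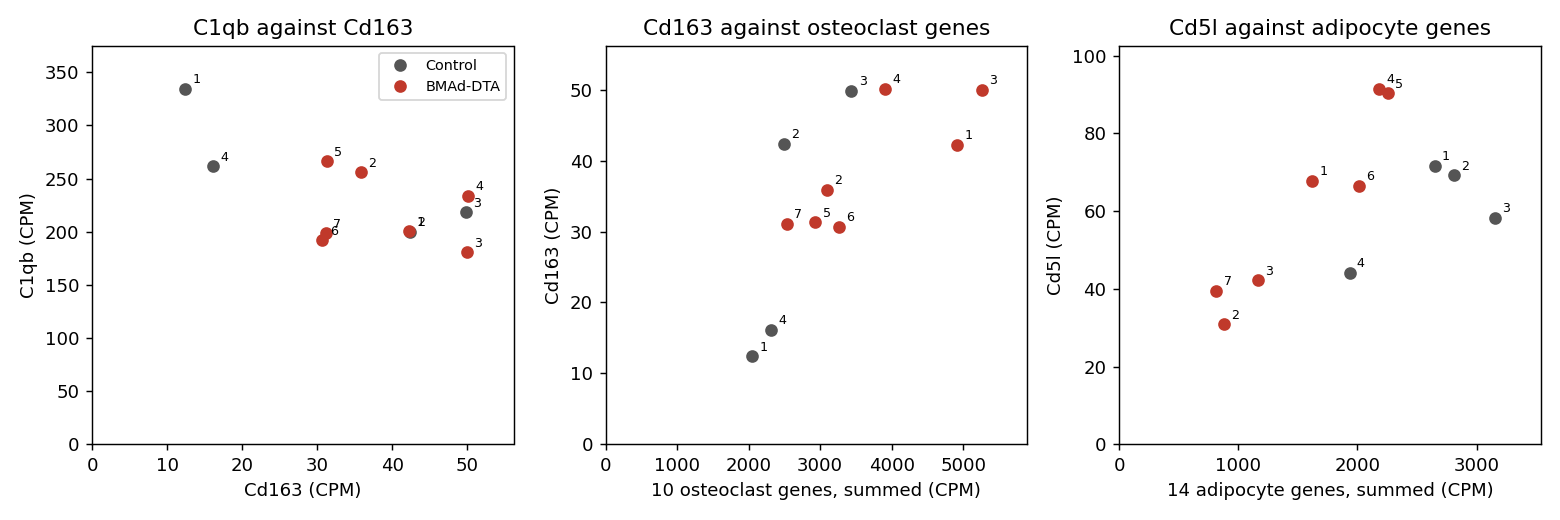
C1qb against Cd163 (left), Cd163 against the sum of 10 osteoclast genes (middle) and Cd5l against the sum of 14 adipocyte genes (right), in CPM, 1 numbered point per mouse, for Control (grey) and BMAd-DTA mice (red). Control mice 1 and 4 have the lowest Cd163, and BMAd-DTA mice 2, 3 and 7 have the lowest Cd5l and the lowest adipocyte sums.

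The remaining nearest genes, chosen like Dcstamp and Plin1 after their values were seen, differed from member to member. Nr1h3 varied with C1qa (r = 0.94, rho = 0.92), C1qc (r = 0.82) and C1qb (r = 0.81). With Cd5l the r of Nr1h3 was only 0.21 (rho 0.21). It was 0.46 with Adgre1, 0.31 with Spic, 0.15 with Axl and -0.04 with Mrc1. With Slc40a1 and Cd163 it was -0.43 and -0.63. Irgm1 and Parp9, interferon-induced genes, had r of 0.92 and 0.91 with C1qb. By the rule set for naming genes, the 10 genes nearest to the mean of all members were Edar, Cox19, Rad51b, Malsu1, Dse, Mamld1, Mmp19, Tbc1d9, Cmklr1 and Gm44710, with r from 0.84 to 0.88 over the 11 libraries. Of these Cmklr1, the chemerin receptor gene, is known in macrophages, and Edar was at a mean of 1.81 CPM. The members' own r with the mean of the other members ran from -0.18 for Adgre1 to 0.69 for Spic.

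The controls varied more than the BMAd-DTA mice in most of these genes. The SD of log2 CPM was wider among controls for 8 of the 10 genes, and for 52.7% of all genes. For Cd163 it was 0.99 in Control and 0.32 in BMAd-DTA mice, and for Slc40a1 0.40 and 0.13. The exceptions were Cd5l, at 0.32 in Control and 0.61 in BMAd-DTA mice, and C1qc, at 0.20 in both. The difference in spread was not tested, and the 4 controls include mouse 1.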

How the data were processed

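Strand-specific mRNA sequencing of whole distal tibiae was done on 4 Control and 7 BMAd-DTA mice. The authors checked reads with FastQC 0.11.9, used STAR with its defaults for alignment to mm10, deposited raw counts per gene (per library, and merged for 22600 genes) and tested genotype in DESeq2. The annotation release is not given in the sources used here. Unmapped, multimapping, unassigned and ambiguous reads, 26.3% to 32.3% of the per-library files, stayed out of library sizes. No pair of libraries of a group agreed within sampling noise (chi-square per gene 16.7 or more).

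The test on the deposited counts was that of edgeR 4.0.16 under R 4.3.3 (groupwise filterByExpr, TMM, glmQLFit and glmQLFTest, two-sided, Benjamini-Hochberg over 16496 genes, adjusted p under 0.05, genotype as the only term). The SE is the log2 fold change over the square root of F. Correlations used log2 CPM with a prior count of 2 less the group mean. Positions and exon lengths are from GENCODE M21 on GRCm38, which matched 99.9% of the identifiers. Only the edgeR steps were run on simulated data, with changes larger than those of the members. The correlations and letter matches were not. Alternatives were DESeq2 1.42.0, limma-voom (limma 3.58.1), other scalings and filters, per-library counts, marker-based settings and each mouse left out.

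The members, gene lists, tests and alternatives were chosen with earlier results of these data known. Besides all members, the text names of each other list the genes past the threshold, those with the highest and lowest log2 fold change, genes whose role sets them beside a member, and the 10 genes most like the members' mean. Blvra, Cd93, Calr, C1qbp, C1qtnf1, Csf1, Cd68, Plin1, Dcstamp, Irgm1 and Parp9 were added after their values were seen. Mouse numbers follow the order of the records and pair nothing.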

Additional observations from a re-analysis of the deposited data

How the results depend on the processing

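No member passed the threshold in the main fit, in any of 12 alternatives or with any of the 11 mice left out. The members' median log2 fold change was between -0.09 and -0.05 in the 12 alternatives and between -0.12 and 0.0046 with 1 mouse left out. The number of genes called over all genes, 13 in the main fit, was 845 with DESeq2 (433 higher and 412 lower), 20 with limma-voom, 20 with RLE scaling, 3 with a skeletal muscle score as covariate and 4 with pan-leukocyte genes as reference. With 1 mouse left out it was 0 to 292. It was 0 by edgeR without Control mouse 1, Control mouse 2, BMAd-DTA mouse 1 or BMAd-DTA mouse 6, with 1784, 2239, 2626 and 2528 genes at an unadjusted p under 0.05, and it was 292 without Control mouse 3, 89 without Control mouse 4, 8 without BMAd-DTA mouse 3 and 3 without BMAd-DTA mouse 4. The cause was not tested.

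Of the recomputed member values, 214 kept their direction and 16 changed sign. For Cd5l the log2 fold change was -0.0698 with limma-voom and -0.0060 with pan-leukocyte genes as reference, and -0.116 to 0.125 with 1 mouse left out. For Axl it was 0.00036 with upper quartile scaling and 0.000072 with the muscle covariate, and -0.0857 to 0.0435 with 1 mouse left out. For Spic it was -0.0122 (without Control mouse 4) to 0.152 and for Slc40a1 -0.0113 (without Control mouse 1) to 0.29 with 1 mouse left out. Leaving out 1 mouse moved Adgre1 between -0.39 and -0.18, Mrc1 between -0.21 and -0.03, C1qb between -0.32 and -0.06 and Cd163 between 0.10 and 0.72. No paired analysis was possible because the mouse numbers come from the order of the records. The widest 95% intervals were those of Cd163 (-0.34 to 1.07) and Cd5l (-0.58 to 0.61, log2 scale).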
